A study of Mus musculus with 12 samples.

Results

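Ppia and Hsp90ab1, both genes of protein folding, were followed on 12 arrays of mouse left ventricle. Each was represented by 1 probe, identified by its probe ID and transcript accession (CUST_10_PI419532418, NM_008907.1, for Ppia and CUST_6_PI419532418, NM_008302.3, for Hsp90ab1), with earlier results of these data known. They are 2 of the 15 probes that the files pair with an accession, among 60930 non-control probes. The mice were male C57BL/6J animals, wild type or lacking the long noncoding RNA Miat throughout the body (MIAT KO), and had undergone sham surgery or myocardial infarction (MI) 4 weeks before the left ventricle (LV) was taken. Each of the 4 groups held 3 independent ventricles. Wild-type sham mice were 13 or 14 weeks old, as were wild-type MI mice. Knockout sham mice were 15 or 16 weeks old, and all knockout MI mice 16 weeks. The labels name the whole ventricle, so that scar, border and remote muscle were measured together, and fewer cells of a type cannot be told apart from less RNA per cell. Tissue markers and Miat itself were not analysed here, since the remaining probes carry design IDs that were not paired with genes.

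Ppia encodes cyclophilin A, an abundant cytosolic peptidyl-prolyl isomerase. It turns the bond before proline residues, binds the immunosuppressant cyclosporin A, and is also secreted, when it acts as a chemoattractant for leukocytes. Hsp90ab1 encodes HSP90 beta, the constitutively expressed cytosolic form of the ATP-driven chaperone HSP90, which holds kinases and steroid hormone receptors in a form ready for activation. Its stress-inducible relative is encoded by Hsp90aa1. Both Ppia and Hsp90ab1 are in common use as reference genes for normalising transcript measurements.

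The values were bright and precise within an array. Every one of the 20 spots per probe was well above background on all 12 arrays, and none was saturated. The median processed signal lay between 25145 and 81609.6 for Ppia and between 16635 and 26918 for Hsp90ab1 over the arrays. The SD between spots of 1 array was 0.03 to 0.06 on the log2 scale for Ppia and 0.01 to 0.05 for Hsp90ab1, below the pooled SD between arrays of a group, which was 0.28 for Ppia and 0.12 for Hsp90ab1. Spots of a probe share 1 RNA sample and are not replicates of a condition. The sequence of neither probe was used here. The RefSeq table of assembly GRCm38.p6 lists 61 pseudogenes with a Ppia synonym, and whether the Ppia probe also reads such copies was not tested, nor whether the Hsp90ab1 probe reads Hsp90aa1.

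Arrays with the same scan time in the headers were taken as 1 slide, since no slide identifier was read. This gave 2 slides, and groups were not spread evenly over them. The 6 MI arrays of both genotypes were on slide 1, together with replicates 2 and 3 of knockout sham. Replicate 1 of knockout sham was on slide 2 beside the 3 wild-type sham arrays. Genotype and age cannot be told apart, and in wild type surgery and slide cannot be told apart.

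Levels are given as the log2 processed signal minus the 75th percentile of the non-control spots on that array. Ppia lay at 5.89, 5.84 and 6.19 in wild-type sham replicates 1, 2 and 3. It lay at 6.99, 7.48 and 7.04 in wild-type MI replicates 1, 2 and 3. In knockout sham it lay at 6.78, 6.22 and 6.15. In knockout MI it lay at 5.84, 6.19 and 6.44. On this scale all 3 wild-type MI arrays were above the other 9, with the nearest being knockout sham replicate 1, while the other 3 groups overlapped one another. In the authors' log2 values and after quantile normalization that array lay just above wild-type MI replicate 3, at 15.50 against 15.49 in both.

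Hsp90ab1 lay at 5.84, 5.86 and 5.72 in wild-type sham replicates 1, 2 and 3. It lay at 5.49, 5.55 and 5.85 in wild-type MI. The knockout arrays lay at 5.67, 5.72 and 5.61 after sham surgery and at 5.63, 5.57 and 5.45 after infarction. The wild-type MI arrays covered nearly the whole range of this gene, since replicate 3 was as high as the sham arrays and replicates 1 and 2 were lower than any of them. The knockout MI arrays all lay below every wild-type sham array. In the authors' values and after quantile normalization each of the other 3 groups lay wholly below wild-type sham.

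**Figure D1:**
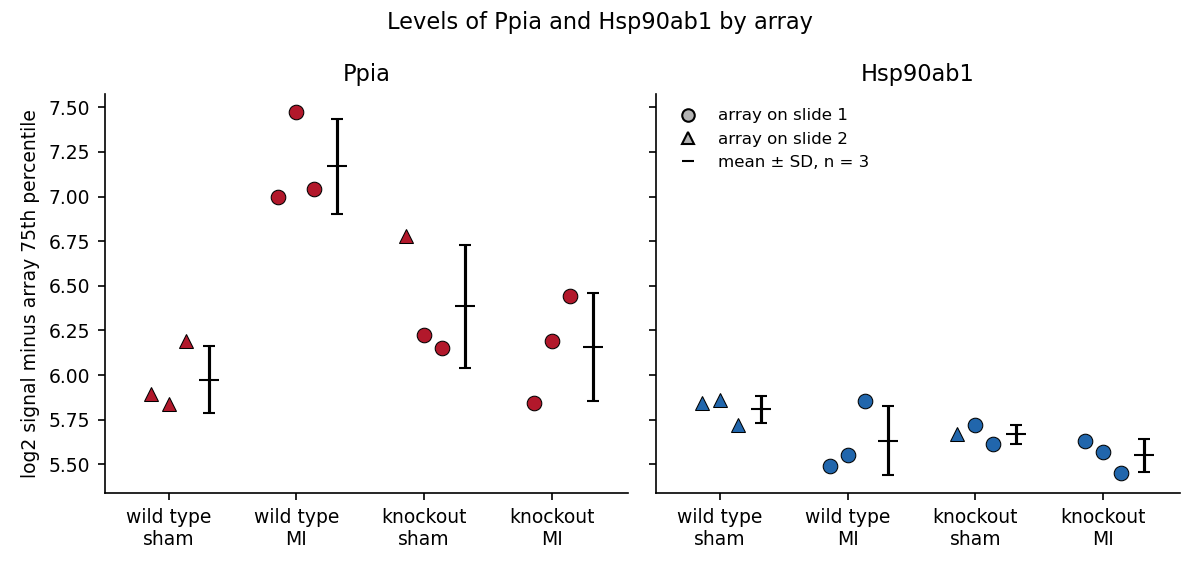
Levels of Ppia (left) and Hsp90ab1 (right) as log2 processed signal minus the array's 75th percentile, 1 point per array in each of the 4 groups, with circles for slide 1, triangles for slide 2 and bars for the mean ± SD (n = 3). The wild-type MI arrays stand above all others for Ppia (6.99 to 7.48) on this scale, and Hsp90ab1 stays between 5.45 and 5.86 on it. In the authors' values and after quantile normalization, knockout sham replicate 1 lies just above wild-type MI replicate 3 for Ppia.

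The first question was how infarction altered both genes in wild type. Ppia rose from 5.97 ± 0.19 to 7.17 ± 0.27 (SD, n = 3 each), a difference of 1.20 on the log2 scale (SE 0.21; limma adjusted p = 0.0079 with Benjamini-Hochberg adjustment over all 54031 probes tested). This is a 2.29-fold rise with a 95% interval of 1.65 to 3.17. Of all probes tested, 25.1% were called in this comparison and 12.2% were called higher (12.9% lower), and 95.4% had a smaller difference in either direction. Hsp90ab1 had means of 5.81 ± 0.08 after sham surgery and 5.63 ± 0.19 after infarction (SD, n = 3 each). Its difference of -0.17 (SE 0.11; limma adjusted p = 0.25) did not pass, and its interval, -0.42 to 0.07, reaches from a fold of 0.75 to one of 1.05. Without wild-type MI replicate 3 it was -0.28 (limma adjusted p = 0.054), and without wild-type MI replicate 1 it was -0.10. No wild-type arrays of both surgeries shared a slide; with slide as a fixed term, which rests on knockout sham replicate 1, the Ppia difference was 1.79.

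The account of Hsp90ab1 after infarction depended on the scaling of the arrays. Its difference was -0.46 (SE 0.14; limma adjusted p = 0.035) under quantile normalization, which forces the same distribution of values on every array. It was also -0.46 in the authors' deposited values (limma adjusted p = 0.035), and -0.49 when arrays were centred on the other 13 named genes (limma adjusted p = 0.042). In each of these Hsp90ab1 was called lower. So were 8775 of 54031 probes under quantile normalization and 8748 of 53941 in the authors' values. With arrays centred on the other named genes, 18315 of 54031 probes were called lower. Of the 13 named genes, 5 were called higher themselves, and this centring moved the median of all probes to -0.35. The brightest 10% of the probes, 5404 in number and including both Ppia and Hsp90ab1, had a median difference of 0.23 in the same comparison after scaling to the 75th percentile and of -0.03 after quantile normalization, against -0.04 and -0.08 over all probes. Within that class, 22.3% of probes lay below Hsp90ab1 on the first scale and 21.7% on the second. Ppia was called higher under quantile normalization, in the authors' values and with centring on the other named genes, with differences of 0.86, 0.86 and 0.88. The probes called higher there numbered 5484 of 54031, 5492 of 53941 and 3120 of 54031.

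In the knockout neither gene passed the test for infarction. Ppia had means of 6.39 ± 0.34 after sham surgery and 6.16 ± 0.30 after infarction (SD, n = 3 each), with overlapping arrays. The difference was -0.23 (SE 0.21; limma adjusted p = 0.77) with a 95% interval of -0.70 to 0.24, which does not reach the rise seen in wild type. Hsp90ab1 had means of 5.67 ± 0.06 and 5.55 ± 0.09 (SD, n = 3 each) and a difference of -0.12 (SE 0.11; limma adjusted p = 0.77), with an interval of -0.36 to 0.13. The background was 0% here, with 0 probes called in limma and 4922 at an unadjusted p under 0.05. Within slide 1, where 3 MI arrays met 2 sham arrays, the Ppia difference was -0.03, since the highest sham array is the one on slide 2. It was -0.07 without knockout MI replicate 1 and -0.37 and -0.34 without knockout MI replicate 3 and knockout sham replicate 3, and for Hsp90ab1 it was -0.07 without knockout MI replicate 3. The sign for Hsp90ab1 turned to 0.037 under quantile normalization and to 0.040 in the authors' values.

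The difference between these infarction effects was then tested directly. For Ppia the effect in the knockout was smaller than in wild type, with a log2 difference of -1.42 (SE 0.30; limma adjusted p = 0.042), with an interval of -2.09 to -0.76. Over all probes 2.93% were called and 1.75% were called in this direction. The class of 5404 brightest probes, which holds Ppia, had a median difference of -0.44 here, against 0.02 over all probes. Within that class 2.79% of probes lay below Ppia. Under quantile normalization the class median was -0.001, against 0.04 over all probes, and 3.68% of the class lay below Ppia. What part of the Ppia difference goes with this class was not tested. For Hsp90ab1 the difference of effects was 0.06 (SE 0.16; limma adjusted p = 0.83), with an interval of -0.29 to 0.40. The call for Ppia was a narrow one: it ended without any filter on dim probes (adjusted p = 0.053), under quantile normalization (-0.91), in the authors' values (-0.90), with the other named genes as the scale (-1.12), with replicate number as a block (p = 0.081 after adjustment) and with age as a covariate (p = 0.15 after adjustment), all in limma. It also ended when any 1 of 8 arrays was left out, with differences of -1.26 to -1.53 and adjusted p of 0.052 to 0.11 in limma. These were any wild-type sham array, wild-type MI replicate 2 or 3, knockout sham replicate 2, or knockout MI replicate 1 or 2. Calls over all probes fell too. Of 54031 probes, 1584 were called with all arrays and 0 to 866 without 1 of these 8. Under quantile normalization 718 were called, with the other named genes as the scale 1481, with the block 76 and with age 0.

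**Figure D2:**
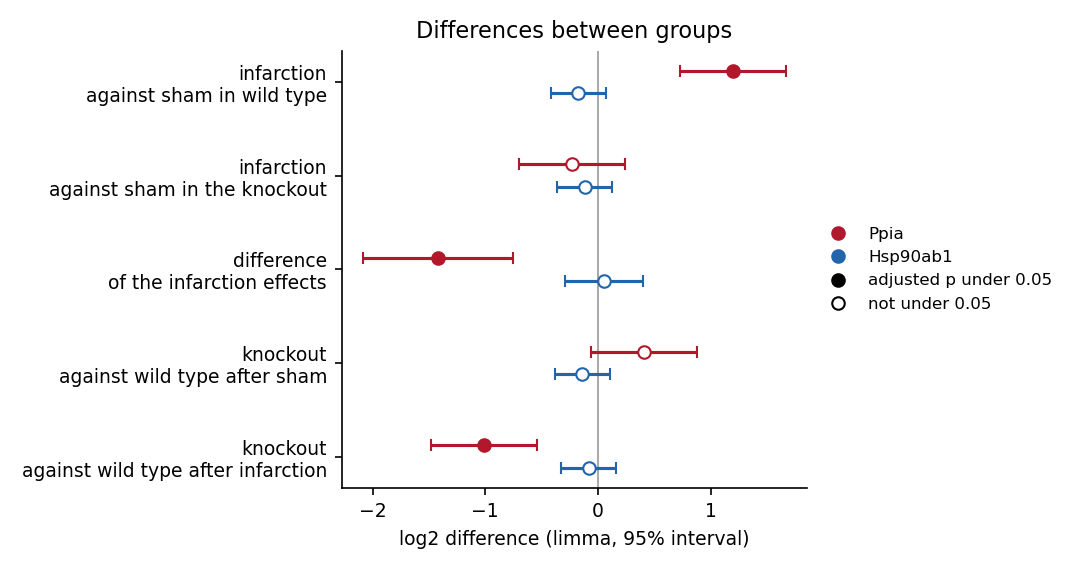
Log2 differences from limma (horizontal axis) with 95% intervals for Ppia and Hsp90ab1 in 5 comparisons, with filled points where the adjusted p is under 0.05. Ppia passes in wild type (1.20), in the difference of the infarction effects (-1.42) and between genotypes after infarction (-1.01), and no Hsp90ab1 interval leaves 0 out.

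Between the genotypes after infarction, Ppia was lower in the knockout, at 6.16 ± 0.30 against 7.17 ± 0.27 (SD, n = 3 each). The log2 difference was -1.01 (SE 0.21; limma adjusted p = 0.018), a fold of 0.50 with a 95% interval of 0.36 to 0.69, and the arrays did not overlap. In this comparison 22.4% of all probes were called and 10.6% were called lower. The class of 5404 brightest probes had a median difference of -0.31, against 0.05 over all probes, and 6.00% of it lay below Ppia. Under quantile normalization these values were -0.0059, 0.055 and 6.42%. What part of the Ppia difference goes with this class was not tested. Hsp90ab1 differed by -0.08 (SE 0.11; limma adjusted p = 0.58), with an interval of -0.33 to 0.16, and its sign turned under quantile normalization (0.21), in the authors' values (0.21), with the other named genes as the scale (0.12) and with array weights (0.0048). All 6 arrays lay on slide 1, and a fit of that slide alone also called Ppia (-1.01; limma adjusted p = 0.040). The Ppia call ended in the authors' values and under quantile normalization (-0.67 in both) and in a fit of only these groups. It also ended with age as a covariate, and without wild-type MI replicate 2 (-0.86), knockout MI replicate 1 (-0.85) or knockout MI replicate 2 (-1.03). With age the difference was -1.02, but its SE grew to 0.56. Of 54031 probes, 12103 were called in the main fit, 0 with age, 255 in the fit of only these groups and 647 to 3646 without 1 of these arrays. Under quantile normalization 11522 were called. This comparison and the wild-type infarction comparison use the same wild-type MI arrays.

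After sham surgery neither gene passed between the genotypes, where 0.0296% of all probes were called. Ppia had a difference of 0.41 (SE 0.21; limma adjusted p = 0.36), with an interval of -0.06 to 0.88. Of the knockout sham arrays, replicate 1 was the highest. That array shared slide 2 with the wild-type sham arrays and came from the oldest of the 3 mice. Without it the difference was 0.21, and with slide as a fixed term, which then rests on it alone, it was 0.81. Hsp90ab1 had a difference of -0.14 (SE 0.11; limma adjusted p = 0.56), with an interval of -0.38 to 0.11.

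Ordered by mean level, Ppia ran from wild-type sham (5.97) through knockout MI (6.16) and knockout sham (6.39) to wild-type MI (7.17). The first of these steps, 0.18 (SE 0.21; limma adjusted p = 0.84), did not pass, nor did the next, from knockout MI to knockout sham. The step from knockout sham to wild-type MI did, at 0.78 (SE 0.21; limma adjusted p = 0.021), where 30.6% of all probes were called and 14.3% were called higher. Within slide 1, which leaves out the highest knockout sham array, it was 0.98 (limma adjusted p = 0.040). That call ended under quantile normalization, in the authors' values (0.63 in both), in a fit of only these groups and with age as a covariate. It also ended without knockout sham replicate 2 (0.70) or 3 (0.67) or wild-type MI replicate 2 (0.63). With age the step was 0.79, but its SE grew to 0.45, and 0 of 54031 probes were called, against 16545 in the main fit.

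For Hsp90ab1 the order on the 75th percentile scale was knockout MI (5.55), wild-type MI (5.63), knockout sham (5.67) and wild-type sham (5.81). No neighbours in this order differed by more than 0.14 on the log2 scale, and none passed the test. The ends of the order, knockout MI and wild-type sham, differed by -0.26 (SE 0.11; limma adjusted p = 0.54; 0.00925% of probes called). The unadjusted p of that difference was 0.042 in limma, and its interval was -0.50 to -0.01. The order depended on the scale: in the authors' values wild-type MI was lowest (14.14), followed by knockout sham (14.31), knockout MI (14.35) and wild-type sham (14.60), with the same order after quantile normalization. There the ends are wild-type MI and wild-type sham, which differ by the called -0.46 given above.

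How far the 2 genes diverged was read from their ratio within each array, a quantity from which any scaling by 1 number per array cancels. The ratio is given as the log2 of Ppia over Hsp90ab1, with the wild-type sham mean set to 0, and describes unequal change only. It combines chosen genes and is therefore given without a test. In wild-type sham replicates 1, 2 and 3 it was -0.12, -0.18 and 0.30. After infarction it was 1.34, 1.75 and 1.02 in the same genotype, so that Ppia had gained 2.03-fold to 3.37-fold on Hsp90ab1. The knockout arrays gave 0.94, 0.33 and 0.37 after sham surgery and 0.04, 0.46 and 0.83 after infarction. The wild-type MI arrays were above all others, but the gap was small: wild-type MI replicate 3, where Hsp90ab1 was also high, lay at 1.02 and knockout sham replicate 1 at 0.94. Both knockout groups lay above the wild-type sham mean on every array, and all but knockout MI replicate 1 lay above every wild-type sham array.

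**Figure D3:**
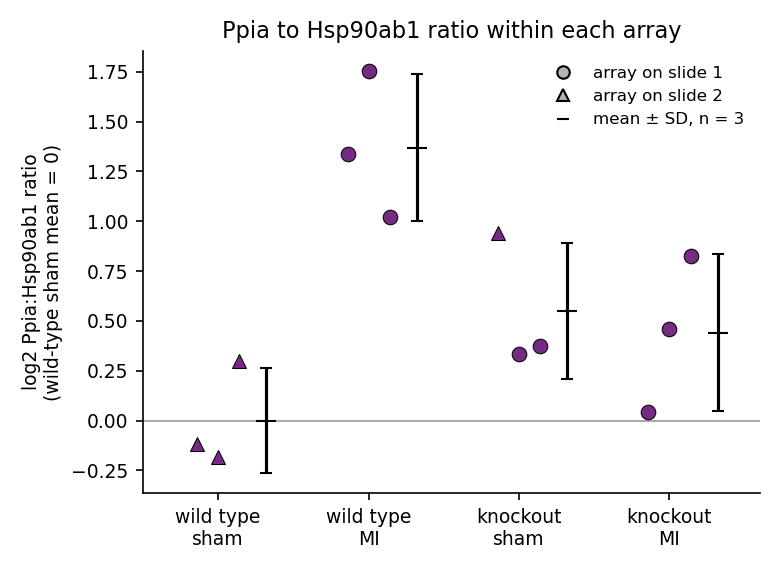
Log2 ratio of Ppia to Hsp90ab1 within each array, relative to the wild-type sham mean, 1 point per array with circles for slide 1 and triangles for slide 2, and bars for the mean ± SD (n = 3). Wild-type MI lies at 1.02 to 1.75, the knockout groups at 0.04 to 0.94 and wild-type sham at -0.18 to 0.30.

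The ratio had group means of 0.00 ± 0.26 in wild-type sham, 1.37 ± 0.37 after infarction in wild type, 0.55 ± 0.34 in knockout sham and 0.44 ± 0.39 after infarction in the knockout (SD, n = 3 each). The shift with infarction was 1.37 in wild type (1.18 to 1.55 without single arrays) and -0.11 in the knockout. The knockout shift had no stable sign: leaving out replicate 1 gave 0.087 (sham array) or 0.091 (MI array), and leaving out the MI array of replicate 3 gave -0.30. The pooled SD within groups was 0.34. The shift in wild type was 1.32 in the authors' values and 1.33 under quantile normalization, and so moved by less than that SD. Both probes are among the brightest (98.5% and 97.7% of probes tested were dimmer), and these scales moved the differences of both genes downward. A steady ratio between them is therefore a weak check of the divergence. On the 75th percentile scale the shift consisted mostly of the rise of Ppia (1.20, with -0.17 for Hsp90ab1). On the quantile scale it was divided into 0.86 and -0.46.

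**Figure D4:**
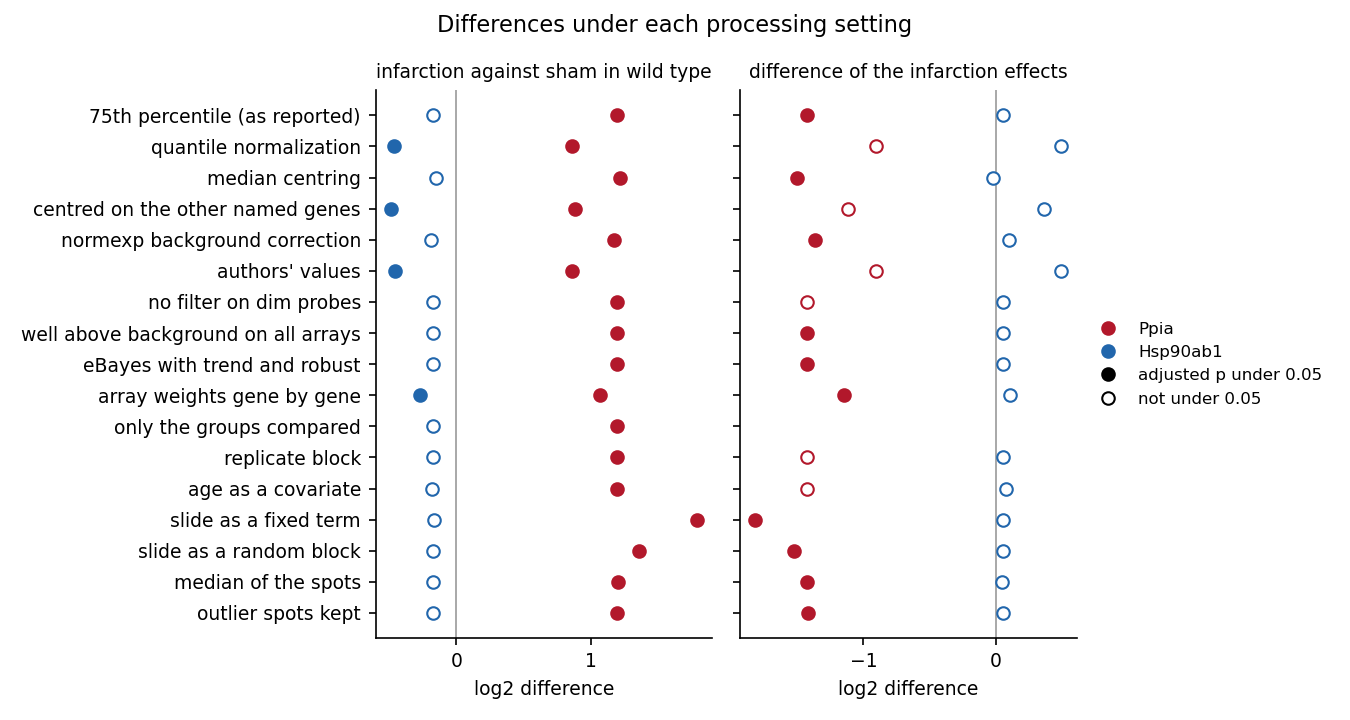
Log2 differences (horizontal axes) of Ppia and Hsp90ab1 for infarction in wild type (left) and for the difference of the infarction effects (right) under each processing setting (rows), filled where the adjusted p is under 0.05. Ppia is called in every row on the left, at 0.86 to 1.79, and Hsp90ab1 in 4 of them; a row without a point on the right was not fitted, because that comparison already uses all groups.

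The spread over the whole series set the genes apart as well. Ppia had an SD of 0.53 over the 12 arrays and covered a range of 1.64 on the log2 scale, or, within groups, an SD of 0.28. Hsp90ab1 had an SD of 0.14, a range of 0.41 and an SD within groups of 0.12. Differences between the group means held 79.8% of the variance of Ppia and 48.7% of that of Hsp90ab1. Means of 4 groups of 3 arrays hold part of the variance even where no group differs, and that part was not estimated here. Among all probes tested, whose median SD was 0.27, 85.4% varied less than Ppia and 10.4% varied less than Hsp90ab1. Within the brightest 10%, where the median SD was 0.32, the shares were 81.5% and 3.20%. Of the 15 named genes ordered by SD, Hsp90ab1 stood at place 5 from the steadiest and Ppia at place 14.

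The other 13 named genes were set against each of the pair by the SD of their log2 ratio over the 12 arrays, from which the scaling cancels. A small value means that 2 genes kept a steady ratio, through a like pattern or because both varied little. These ratios share the same arrays and are a description. The genes most like Ppia were Actb, a cytoskeletal actin (0.14), Gusb, a lysosomal glucuronidase (0.21), and Rpl13a, a ribosomal protein (0.26). The least like it was Tfrc, the transferrin receptor (0.89). Hsp90ab1 itself came at place 9 of 14 for Ppia, with an SD of 0.59. The smallest values for Hsp90ab1 were those of G6pd2, a copy of the glucose-6-phosphate dehydrogenase gene (0.13), Ldhal6b, a lactate dehydrogenase-like gene (0.14), and Nono, an RNA-binding paraspeckle protein (0.16). These 3 had the lowest SDs over the arrays of all named genes (0.07, 0.12 and 0.11). Their small values therefore need not mean a pattern shared with Hsp90ab1. Tfrc again had the largest value (0.73), and Ppia came at place 12 of 14. Single arrays illustrate the small value for Actb but add nothing to it, since Actb was picked on these same arrays. Knockout sham replicate 1, high for Ppia, had Actb at 5.01 against 4.53 and 4.42 in replicates 2 and 3. Wild-type MI replicate 2, the highest for Ppia, had Actb at 5.82 against 5.12 and 5.17 in replicates 1 and 3. Both arrays were also the highest of their groups for Gusb and Rpl13a. In knockout MI, Ppia was lower in replicate 1 than in replicate 2 (5.84 and 6.19), while Actb was higher (4.45 and 4.35).

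**Figure D5:**
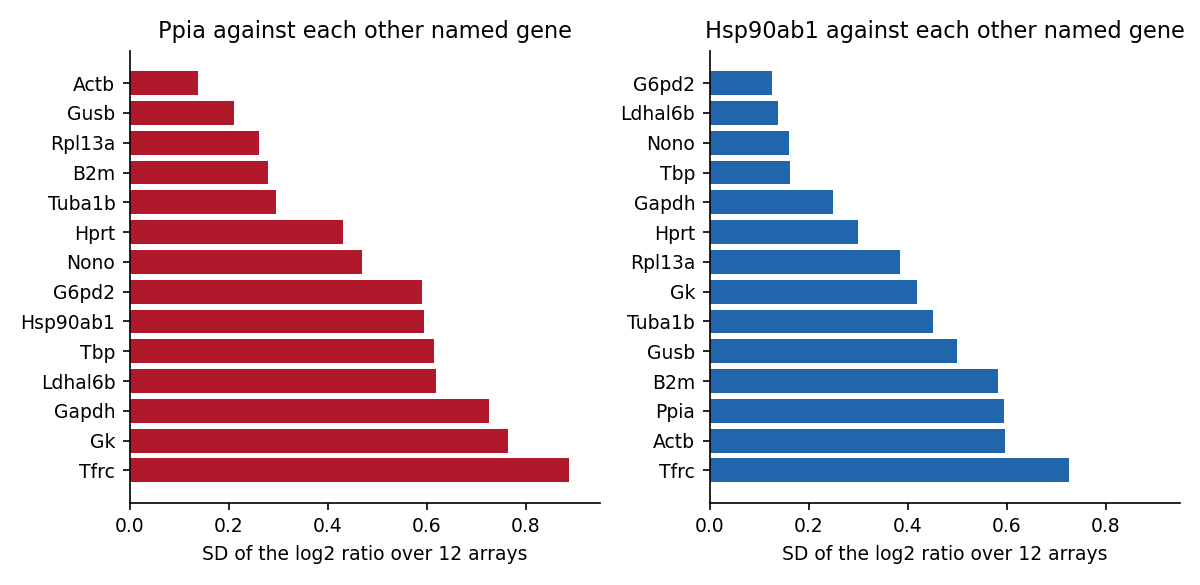
SD over 12 arrays of the log2 ratio between Ppia (left) or Hsp90ab1 (right) and each of the other 14 named genes, with bars starting at 0 and sorted from the smallest to the largest. The shortest bars are Actb for Ppia (0.14) and G6pd2 for Hsp90ab1 (0.13), and Tfrc has the longest in both panels.

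Counted over the other 13 named genes, 5 were called higher, 1 lower and 7 did not pass for infarction in wild type, where 25.1% of all probes were called, with a median difference of 0.12 and a range from -0.47 for Gapdh to 1.23 for Actb. In the knockout 0 of 13 passed in limma, against 0% of all probes, with a range of -0.28 to 0.60. Between the genotypes after infarction 4 were lower and 9 did not pass, against 22.4% of all probes called and 10.6% called lower, with a range of -0.92 for B2m to 0.75 for Tfrc. For the difference of the infarction effects only Actb passed beside Ppia, at -1.37, against 2.93% of all probes. Ppia thus lay near the upper end of the named genes in wild type and Hsp90ab1 below their median.

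The 250 bases just before the start of Ppia are shown for reference. They are given as in RefSeq for build GRCm38.p6, chr11:6415617-6415866 on the plus strand. The promoter set used here held no sequence for Hsp90ab1. The capitals mark GC boxes (GGGCGG on either strand) and a TATA box (TATAAA on the gene's strand), which do not overlap.
Ppia: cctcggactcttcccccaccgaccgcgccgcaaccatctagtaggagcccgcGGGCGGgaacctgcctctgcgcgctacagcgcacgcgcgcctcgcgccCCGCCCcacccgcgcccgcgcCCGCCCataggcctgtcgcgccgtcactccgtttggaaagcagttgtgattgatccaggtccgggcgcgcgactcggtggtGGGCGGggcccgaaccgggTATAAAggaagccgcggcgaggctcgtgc
The window holds 4 GC boxes, 2 on each strand, and 1 TATA box that begins 29 bases before the start. At least 1 GC box was found in 32.7% and 4 or more in 4.09% of the 32851 promoter windows of that length in the table, and a TATA box in 7.59%. The heat shock element GAANNTTC (6.69% of windows) and CCAAT on either strand (33.8%) were not found in these letters. GC content was 72.4%, against a median of 52.4%. No measurement of the series bears on these sites.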

How the data were processed

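Per the labels' protocols, total RNA was depleted of ribosomal RNA, amplified by random priming and labelled with Cy3. Per the file headers, the scanner values are spot intensity, background-subtracted within the array, with quality flags (other units); the submitters' processing notes name Agilent Feature Extraction 11.0.1.1. The authors' deposited table was taken as log2, since it correlated with the log2 scanner values at 0.9988 or more per array; its column medians were 6.91 and its scaling is unstated in these sources.

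Outlier-flagged spots (35 to 66 per array) were left out, log2 values of a probe's spots averaged, and probes well above background on at least 3 arrays kept (54031 after 6 negative controls were left out; both Ppia and Hsp90ab1 passed). Between 82.6% and 88.1% of non-control spots were well above background, and the number of arrays limits the precision. Limma 3.58.1 (lmFit, eBayes) in R 4.3.3 fitted 1 mean per group over 12 arrays and was tested on simulated data; called means an adjusted p under 0.05 (Benjamini-Hochberg). The 15 probes paired with an accession are called named genes. Those given by name are Ppia, Hsp90ab1 and, for each, the 3 others with the smallest SD of the log2 ratio and the 1 with the largest. Gapdh, B2m and the comparison of single arrays for Actb, Gusb and Rpl13a were added after values were seen. Members, lists and rules were chosen with earlier results of these data known. Alternatives were other scalings, normexp (offset 50, median spot signal), the authors' values, filters, variance models, array weights, terms for replicate number, age and slide, spot summaries and leaving out arrays. Figures were drawn with matplotlib 3.10.9.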

Additional observations from a re-analysis of the deposited data

Results flagged for a closer look

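The effect of infarction on Ppia differed between the genotypes by a test of the difference itself. It was smaller in the knockout than in wild type with a log2 difference of -1.42 (SE 0.30; limma adjusted p = 0.042 with Benjamini-Hochberg adjustment). All 3 wild-type MI arrays lay above every wild-type sham array, while the knockout MI and sham arrays overlapped. Slide and age moved with the groups, and their part in this difference was not tested beyond the fits that hold a term for them, which gave -1.82 with slide and -1.43 with age, where it no longer passed (limma adjusted p = 0.15). It also did not pass with the replicate number as a block, under quantile normalization, in the authors' values, with the other named genes as the scale, without a filter on dim probes, or without any 1 of 8 of the 12 arrays. Of all 54031 probes, 0 were called with age and 0 to 866 without 1 of those 8 arrays, against 1584 in the main fit. The class of 5404 brightest probes, which holds Ppia, had a median difference of effects of -0.44 in the main fit. Under quantile normalization that median was -0.001. What part of the Ppia difference goes with this class was not tested.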

How the results depend on the processing

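The rise of Ppia in wild type kept its direction and its call in all 16 alternatives (0.86 to 1.79) and without each single array (1.04 to 1.30). None of these can separate surgery from slide within wild type, where the MI and sham arrays lay on different slides. The fit with slide as a fixed term (1.79) rests on knockout sham replicate 1. Other calls of Ppia ended in some of the alternatives. Under quantile normalization Ppia did not pass for the difference of effects (-0.91), between the genotypes after infarction (-0.67) or for wild-type MI against knockout sham (0.63), and Hsp90ab1 was called lower after infarction in wild type (-0.46) and changed sign for infarction in the knockout (0.037) and between the genotypes after infarction (0.21). The authors' values gave -0.90, -0.67, 0.63, -0.46, 0.040 and 0.21 for the same. Centring on the other named genes gave -1.12 for the Ppia difference of effects, which did not pass, -0.49 (called) for Hsp90ab1 after infarction in wild type and 0.12 between the genotypes after infarction, and median centring gave -0.021 for its difference of effects. With array weights Hsp90ab1 was called at -0.27 for infarction in wild type and lay at 0.0048 between the genotypes after infarction. In wild type that setting called 24036 of 54031 probes, 12406 of them lower. Its weights ran from 0.17 for wild-type MI replicate 2 to 8.33 for knockout sham replicate 2, so the arrays counted very unequally. The Ppia difference of effects did not pass without a filter (-1.42) or with age as a covariate (-1.43). With age, Ppia also did not pass between the genotypes after infarction (-1.02) or for wild-type MI against knockout sham (0.79), nor in fits of only the groups compared (-1.01 and 0.78). In each of these comparisons the fit with age called 0 of 54031 probes, and the Ppia differences themselves hardly moved. Without single arrays Ppia ranged from -1.57 to -1.23 for the difference of effects, from -1.15 to -0.85 between the genotypes after infarction and from 0.63 to 0.98 for wild-type MI against knockout sham. Hsp90ab1 ranged from -0.014 to 0.17, from -0.15 to 0.027 and from -0.14 to 0.036 for the same, with a change of sign in each. Apart from the fewer arrays or other probe sets of some fits, the cause of these changes was not tested. No shift of the ratio moved by more than its pooled SD within groups, but that in the knockout ranged from -0.30 to 0.091 without single arrays.

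The labels call the ventricles independent, and same-numbered arrays did not deviate together (correlations of deviations from group means of -0.33 to 0.29 over 18 pairs, 6 of them over 0.1; 5 of 12 arrays correlated best with their own number). With the replicate number as a block the Ppia difference of effects was -1.42 and did not pass (limma adjusted p = 0.081), and the count of all probes called there went from 1584 to 76; for Ppia and Hsp90ab1 no other call changed.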
